A study of Tupaia belangeri chinensis with 36 samples.

Results

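The piRNA content of the testis (TESTIS-R) was set against that of the cauda epididymis (CAUDA-R) in male Chinese tree shrews (Tupaia belangeri chinensis) taken in the reproductive season. The libraries were chosen by tissue and season alone: 6 of the 18 small RNA libraries of the series and of its 36 samples in all, 3 from TESTIS-R and 3 from CAUDA-R. All animals were sexually mature males of 1.5 to 2 years, with no genotype or treatment given; both groups were collected in mid-April 2024 and sequenced as 50-nt single-end reads from total RNA. The series text calls the 3 replicates of a group biological, and the labels do not say whether a testis and a cauda library with the same number came from 1 animal. Both tissues were homogenised whole, so fewer cells of a type and less RNA per cell cannot be told apart. For each of 59590 numbered piRNA entries (pir-tup numbers) the authors deposited read counts, and the level used throughout is an entry's share of the library's piRNA total, in counts per 1000000 piRNA counts (CPM), unless another scale is named. Libraries of the caput epididymis of the same season (CAPUT-R) are quoted as description only. So are those of the same tissues in the non-reproductive season (TESTIS-NR, CAPUT-NR, CAUDA-NR, males of the same age range). All libraries of the non-reproductive season were collected in an earlier calendar year than those of the reproductive season. Season and year of collection therefore cannot be told apart wherever the seasons are set side by side below. Neither labels nor tables give an entry's sequence, genome position or host gene, so entries are described by number and count.

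piRNAs are small RNAs that guide PIWI proteins, a germline branch of the Argonaute family. In mammals they silence transposons, and a large class, the pachytene piRNAs, is made from long precursor transcripts in spermatocytes and round spermatids. The cauda epididymis is the last segment of the epididymal duct, where mature sperm are stored inside a tube of epithelium wrapped in smooth muscle, so its total RNA comes from the duct wall and from sperm.

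The miRNAs of the same libraries were used to check the tissue labels, in counts per 1000000 miRNA counts (miRNA CPM). All 3 miRNAs of the list for germ cells of meiosis and after (miR-34b, miR-34c and miR-449a) were higher in every TESTIS-R library than in every CAUDA-R library, and summed to 5610 to 7808 in TESTIS-R against 490 to 1097 in CAUDA-R. All 5 epithelial miRNAs of the miR-200 family ran the other way, with sums of 201 to 2112 in TESTIS-R against 62187 to 94722 in CAUDA-R. Both smooth muscle miRNAs (5072 to 11948 against 27398 to 38298), all 3 striated muscle miRNAs (91.4 to 101 against 3004 to 7720) and 3 of 5 leukocyte miRNAs were lower in every TESTIS-R library; the leukocyte list summed to 642 to 1577 in TESTIS-R and 2062 to 5346 in CAUDA-R. No marker was at 0 in a whole group, and the part of these cell types in the results was not tested. CAUDA-R 2 stood apart as the shallowest of the 6 libraries, with 23499 piRNA counts, so results that rest on it are also given without it.

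TESTIS-R libraries held far more piRNA counts than CAUDA-R libraries. TESTIS-R 1, 2 and 3 held 4151639, 6440714 and 4528867 piRNA counts, and CAUDA-R 1, 2 and 3 held 83822, 23499 and 58896. The groups did not overlap, and the means of 5040407 ± 1227282 in TESTIS-R and 55406 ± 30313 in CAUDA-R (SD, n = 3 each) stood 91.0-fold apart (two-sided exact permutation test of log2 totals, p = 0.1, the smallest that 3 against 3 allows); without CAUDA-R 2 the ratio was 70.6. Raw totals also carry the sequencing depth of each library, so they were set against the miRNA counts of the same library. TESTIS-R 1, 2 and 3 held 2746650, 4800500 and 2166152 miRNA counts, and CAUDA-R 1, 2 and 3 held 9591069, 7061843 and 7906896. These totals did not overlap between the groups, so values on the miRNA scale are relative to a total that itself differs. There were 151, 134 and 209 piRNA counts per 100 miRNA counts in TESTIS-R 1, 2 and 3, against 0.874, 0.333 and 0.745 in CAUDA-R 1, 2 and 3. The piRNA counts thus outnumbered the miRNA counts in every TESTIS-R library and stayed under 1 per 100 in every CAUDA-R library, with means of 165 ± 39.3 and 0.651 ± 0.283 (SD, n = 3 each), a ratio of 253 (exact permutation p = 0.1). The authors' table of piRNA clusters gave a ratio of 65.1 between the totals of the same libraries (exact permutation p = 0.1).

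**Figure D1:**
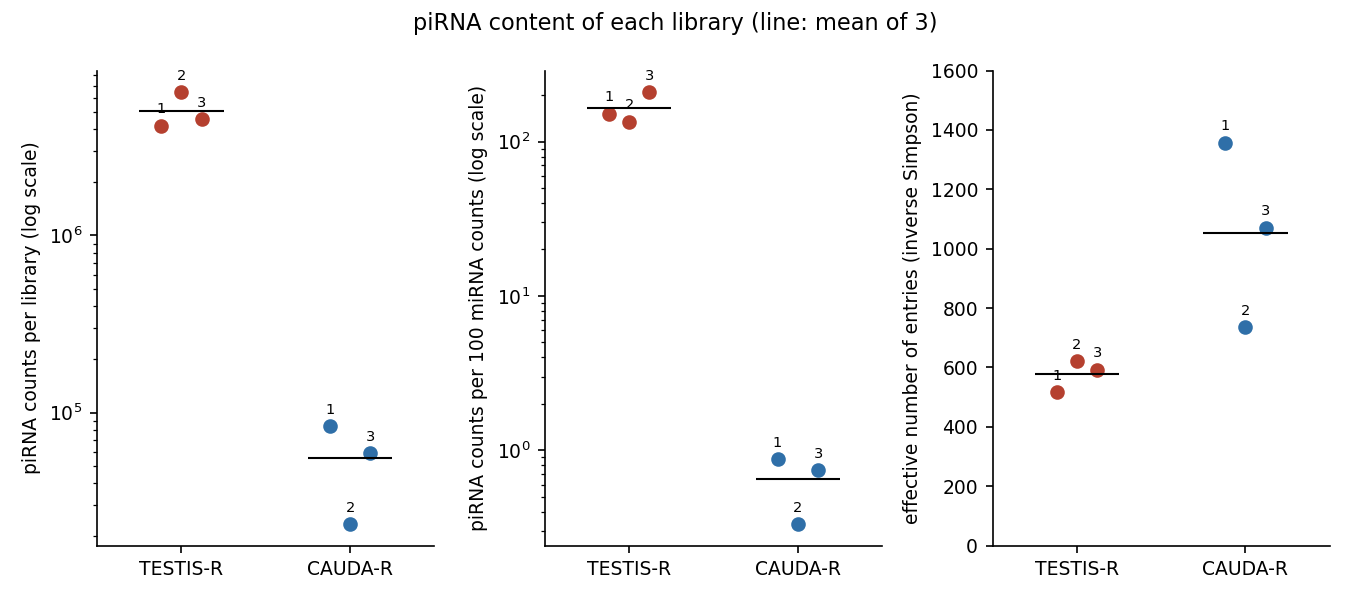
piRNA content of the 3 TESTIS-R and 3 CAUDA-R libraries: piRNA counts per library (log axis), piRNA counts per 100 miRNA counts of the same library (log axis) and effective number of entries (linear axis from 0). Points are libraries with their replicate number and lines are group means; the TESTIS-R libraries lie at 134 to 209 piRNA counts per 100 miRNA counts and the CAUDA-R libraries at 0.333 to 0.874, while the effective number is 517 to 621 in TESTIS-R and 736 to 1357 in CAUDA-R.

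Nearly every piRNA entry was counted in the testis, among them nearly all those counted in the cauda. Over its 3 libraries TESTIS-R had at least 1 count for 59232 of all 59590 entries, and CAUDA-R for 21748. Counted in both were 21582, which is 36.4% of the TESTIS-R entries and 99.2% of the CAUDA-R entries. The 99.2% is close to the share of all entries that TESTIS-R counted, so it shows nothing particular to the cauda. Only 166 entries were counted in CAUDA-R and in no TESTIS-R library. They took 0.341% of CAUDA-R 1 (95% Clopper-Pearson interval 0.303 to 0.383), 1.21% of CAUDA-R 2 (1.07 to 1.36) and 0.382% of CAUDA-R 3 (0.334 to 0.435), intervals that cover counting error only. CAUDA-R 2 thus held the largest such share, and the mean over the other 2 cauda libraries was 0.362%. A further 37650 entries were counted in TESTIS-R only, but the depths differ: 1 count is worth 0.155 to 0.241 CPM in a TESTIS-R library and 11.9 to 42.6 CPM in a CAUDA-R library. Of those 37650, 1 entry (pir-tup-19987) had a TESTIS-R mean of at least 200 CPM, and 0 counts over the CAUDA-R libraries allow a share of up to 18.0 CPM there.

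At equal depth the number of different piRNAs did not differ between the tissues beyond the spread of the libraries. The expected number of entries in 23499 counts was 8566, 8953 and 8666 in TESTIS-R 1, 2 and 3, against 8673, 6800 and 8150 in CAUDA-R 1, 2 and 3. The ranges overlap, and the difference of 854 entries between the means (8728 ± 201 in TESTIS-R and 7874 ± 966 in CAUDA-R, SD, n = 3 each) had an exact permutation p of 0.3; without CAUDA-R 2 it was 317. At 11749 counts the difference was 106 (exact permutation p = 0.9). The groups did not overlap in how unevenly the counts were spread, although 3 against 3 cannot pass a threshold of 0.05. The 10 most abundant entries of each library took 9.86, 9.26 and 10.2% of TESTIS-R 1, 2 and 3 and 5.74, 8.35 and 6.89% of CAUDA-R 1, 2 and 3, with no overlap (9.78 ± 0.480% and 7.00 ± 1.31%, exact permutation p = 0.1, the smallest possible with n = 3 each); without CAUDA-R 2 the difference of 2.78 percentage points was 3.46. The effective number of entries (inverse Simpson index, the number of equally abundant entries that would give the same concentration) was 517, 621 and 593 in TESTIS-R and 1357, 736 and 1070 in CAUDA-R. TESTIS-R was therefore the more concentrated in each of its libraries, by 477 effective entries between the means (577 ± 54.0 against 1054 ± 311, exact permutation p = 0.1).

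The most abundant piRNAs of both tissues were in part the same entries. Of the 10 with the highest mean share in each tissue 6 were shared, of the 100 highest 44, and of the 1000 highest 569. The TESTIS-R top 100 took 24.2 to 25.3% of the TESTIS-R libraries and 12.8 to 15.1% of the CAUDA-R libraries; the CAUDA-R top 100 took 16.9 to 19.2% of TESTIS-R and 17.8 to 22.0% of CAUDA-R. Across the 17245 entries tested, Spearman's rho of shares was 0.751 to 0.833 between TESTIS-R libraries, 0.403 to 0.495 between the shallower CAUDA-R libraries, and 0.229 to 0.340 between a TESTIS-R and a CAUDA-R library. These correlations are across entries, which are not independent, and low counts in CAUDA-R enter all values that include it.

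The leading testis piRNA was pir-tup-40743, with 27666, 21236 and 16235 CPM in TESTIS-R 1, 2 and 3 and 6168, 6000 and 7012 CPM in CAUDA-R 1, 2 and 3. It ranked first in TESTIS-R and 4th in CAUDA-R, and the groups did not overlap; its log2 difference in share was 1.76 (SE 0.17, edgeR quasi-likelihood adjusted p = 4.35e-07), a 3.40-fold higher mean in TESTIS-R. The entry pir-tup-20692, at 10231, 10031 and 7285 CPM in TESTIS-R and 2434, 3660 and 3090 CPM in CAUDA-R, ranked 4th in TESTIS-R and 12th in CAUDA-R (log2 1.59, SE 0.20, adjusted p = 1.80e-05). Both remained called on leaving out any 1 library, but not when all measured small RNA libraries were fitted together (adjusted p = 0.496 and 0.554).

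Below these, the leading entries differed less. For pir-tup-12199, ranked 3rd in both tissues, the shares were 14106, 16403 and 15202 CPM in TESTIS-R and 9282, 9617 and 9338 CPM in CAUDA-R (log2 0.70, SE 0.14, adjusted p = 0.00193). The shares of pir-tup-14078, ranked 2nd in both, were 15428, 13221 and 17323 CPM in TESTIS-R and 8244, 12426 and 10612 CPM in CAUDA-R (log2 0.56, SE 0.16, adjusted p = 0.0278). For pir-tup-5156 they were 8214, 7811 and 7408 CPM in TESTIS-R and 3973, 5958 and 5620 CPM in CAUDA-R (log2 0.59, SE 0.18, adjusted p = 0.0412). All 3 were higher in each TESTIS-R library, but their calls were not stable. With the filter set anew on leaving out 1 library, pir-tup-12199 lost its call without TESTIS-R 2 (adjusted p = 0.0663), CAUDA-R 1 (0.0842) or CAUDA-R 3 (0.0914). Both pir-tup-14078 (adjusted p of 0.0793 to 0.437) and pir-tup-5156 (0.0784 to 0.471) lost theirs without TESTIS-R 1, 2 or 3, CAUDA-R 1 or CAUDA-R 3, and stayed called only without CAUDA-R 2. With the same entries tested, pir-tup-12199 stayed called without any 1 library, pir-tup-14078 lost its call without CAUDA-R 1 or 3 (0.228 and 0.131), and pir-tup-5156 without TESTIS-R 1 or 2 or CAUDA-R 1 or 3 (0.0627 to 0.263). Without a filter on low counts the adjusted p of pir-tup-12199, pir-tup-14078 and pir-tup-5156 was 0.0567, 0.251 and 0.267, and in the fit of all measured small RNA libraries 0.855, 0.900 and 0.893. The entry pir-tup-22797, ranked 6th in TESTIS-R and 5th in CAUDA-R, overlapped between the groups, with 6831, 6917 and 9103 CPM in TESTIS-R and 6562, 4936 and 7386 CPM in CAUDA-R, and was not called (log2 0.27, SE 0.19, adjusted p = 0.308).

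The most abundant entry of the cauda, pir-tup-7302, was only the 1218th of the testis. It had 80.2, 154 and 119 CPM in TESTIS-R 1, 2 and 3, against 9294, 19916 and 9984 CPM in CAUDA-R 1, 2 and 3. Every CAUDA-R library lay far above every TESTIS-R library; the share was 111-fold lower in TESTIS-R by the means (log2 -6.79, SE 0.33, adjusted p = 2.62e-11). As a share it was less scarce in testes of the non-reproductive season, at 3459 and 6444 CPM in TESTIS-NR 1 and 2. Set against miRNA counts it was not: TESTIS-NR 1 had 230 miRNA CPM, within the 121, 206 and 248 of TESTIS-R 1, 2 and 3. Relative to the miRNA counts the direction between TESTIS-R and CAUDA-R was the opposite, with a log2 difference of 1.38 (adjusted p = 0.0352 with the same entries tested).

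**Figure D2:**
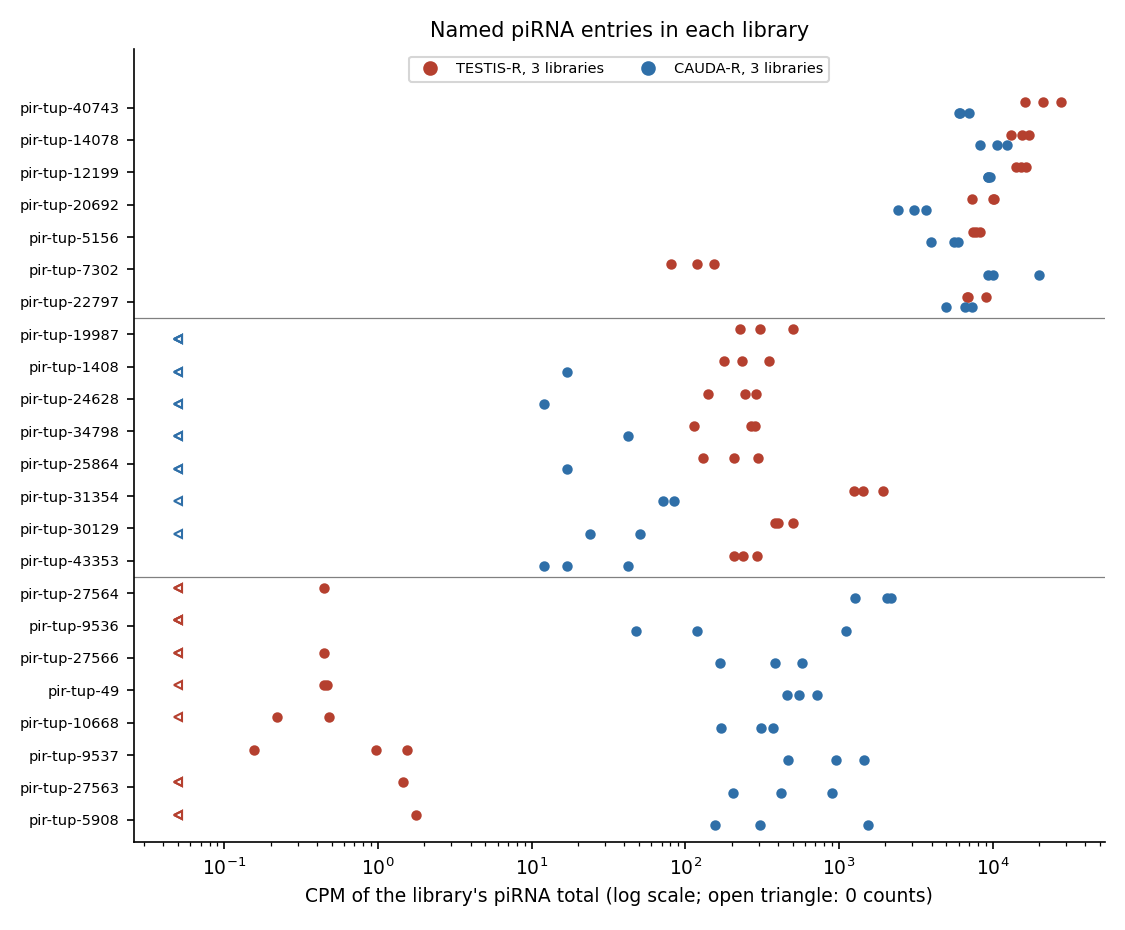
Shares of the named piRNA entries in each of the 3 TESTIS-R and 3 CAUDA-R libraries, in CPM of the library's piRNA total on a log axis; open triangles at the left edge are libraries with 0 counts. The upper block holds the 5 leading entries of each tissue (7 entries in all), the middle block those called higher in TESTIS-R and the lower block those called lower; pir-tup-7302 is the entry of the upper block whose TESTIS-R points (80.2 to 154 CPM) lie far below its CAUDA-R points (9294 to 19916 CPM).

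Scaled to piRNA totals, more piRNAs were called lower than higher in the testis, a balance that other scalings turned round. After edgeR's default filter on low counts 17245 entries were tested, of which 10.4% were called at an adjusted p under 0.05: 374 (2.17%) higher and 1421 (8.24%) lower in TESTIS-R. The 374 higher entries together took 24.4, 24.5 and 20.8% of TESTIS-R 1, 2 and 3, against 7.32, 8.11 and 8.40% of CAUDA-R 1, 2 and 3. The 1421 lower entries took 2.77, 2.66 and 3.28% of the TESTIS-R libraries and 23.5, 29.4 and 22.6% of the CAUDA-R libraries; these sums describe entries chosen on the same values. Median shares, which the calls likewise fix in part, were 166 CPM in TESTIS-R and 20.4 CPM in CAUDA-R for the higher entries, and 6.66 CPM in TESTIS-R and 80.5 CPM in CAUDA-R for the lower ones. The median log2 difference was 3.09 for the higher and -3.36 for the lower entries, beside 0.21 over all 17245. With entries at 0 in 1 tissue set to the bound that 3 counts over the group allow (124 higher and 8 lower entries), the medians were 2.12 and -3.36, and over the 13302 tested entries counted in both tissues the median was -0.34. Groups did not overlap for 373 of the 374 and 1014 of the 1421, beside 5325 (30.9%) of all tested entries with no overlap and higher in TESTIS-R and 1537 (8.91%) with no overlap and lower. By this measure, and by the median over all tested entries, the balance was on the higher side. Both include 3935 entries with 0 counts in every CAUDA-R library, which could not be lower in TESTIS-R. Over the 13302 entries counted in both tissues the median of -0.34 was on the lower side, so neither measure settles the balance.

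The number of calls moved with the scale and with single libraries. Of the 17245 entries 11590 had under 4 counts in each CAUDA-R library, and 3935 had 0 in all of them. Lower calls rested on as few as 4 counts summed over the CAUDA-R libraries, with a median of 13. With the same entries tested, the higher calls numbered 228 without TESTIS-R 1, 143 without CAUDA-R 1 and 217 without CAUDA-R 3, and the lower calls 710 without CAUDA-R 1; without CAUDA-R 2 they were 324 higher and 1108 lower. TMM scaling, which shifted the median log2 difference of all entries to 1.53, gave 4562 higher and 711 lower, and DESeq2's size factors (median 1.08) gave 1872 higher and 861 lower; no entry changed its direction among the calls of these scalings. DESeq2's own test called 2225 higher and 1461 lower.

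On the scale of miRNA counts nearly all tested piRNA entries were higher in the testis. With the same entries tested, 17115 (99.2%) were called higher and 9 (0.0522%) lower in TESTIS-R, with a median log2 difference of 7.84, and 17207 of 17245 differences were positive. Of the 1421 entries with a lower share in TESTIS-R, 1383 were positive on this scale, 1291 of them called higher and 9 called lower.

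**Figure D3:**
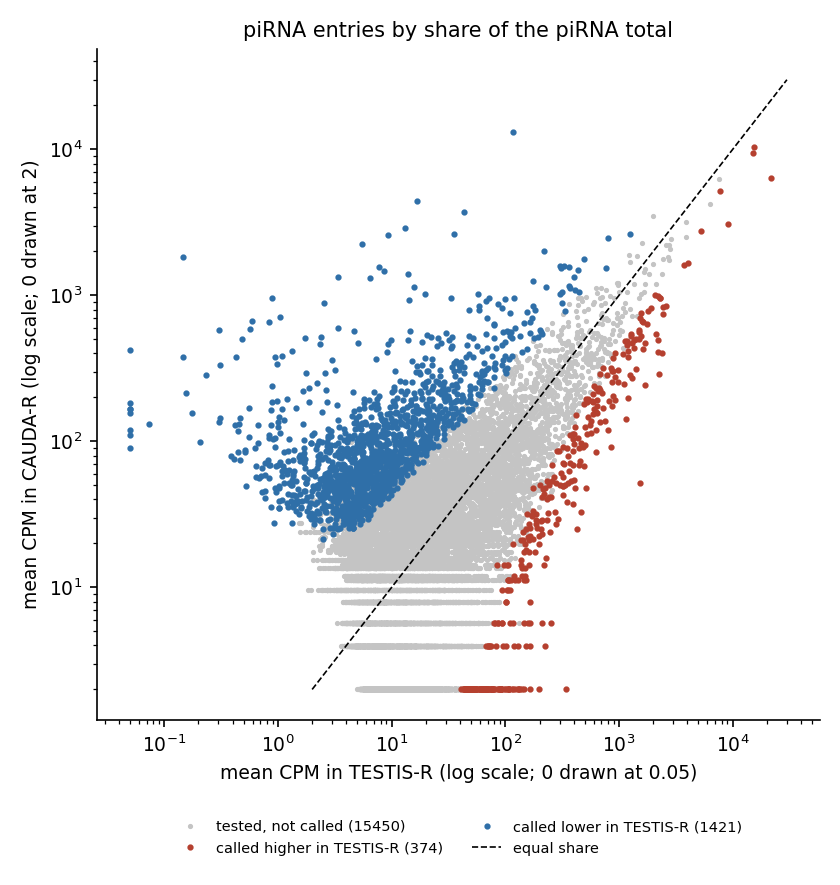
Mean share of each of the 17245 tested piRNA entries in TESTIS-R (horizontal) and CAUDA-R (vertical), in CPM on log axes, with the line of equal share; a mean of 0 is drawn at 0.05 for TESTIS-R and at 2 for CAUDA-R. The 374 entries called higher in TESTIS-R (red) include most of the points at the upper right that lie below the line, and the 1421 called lower (blue) spread to entries with few or no testis counts; pir-tup-7302 is the uppermost point.

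The calls depended on how abundant an entry was. Among 81 entries with a mean of at least 1000 CPM over the 6 libraries, 33 (40.7%) were called higher and 12 (14.8%) lower in TESTIS-R, so higher calls led. Among 625 entries of 200 to 1000 CPM, 15.7% were higher and 19.0% lower, and among 2419 entries of 50 to 200 CPM 5.04% and 20.5%. In the 4027 entries of 20 to 50 CPM, 121 were called higher and 666 (16.5%) lower, and below 20 CPM none of 10093 was called higher and 1.28% lower. In a CAUDA-R library 1 count is worth 11.9 to 42.6 CPM, and the part of depth in the lack of higher calls in that last class was not tested.

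**Figure D4:**
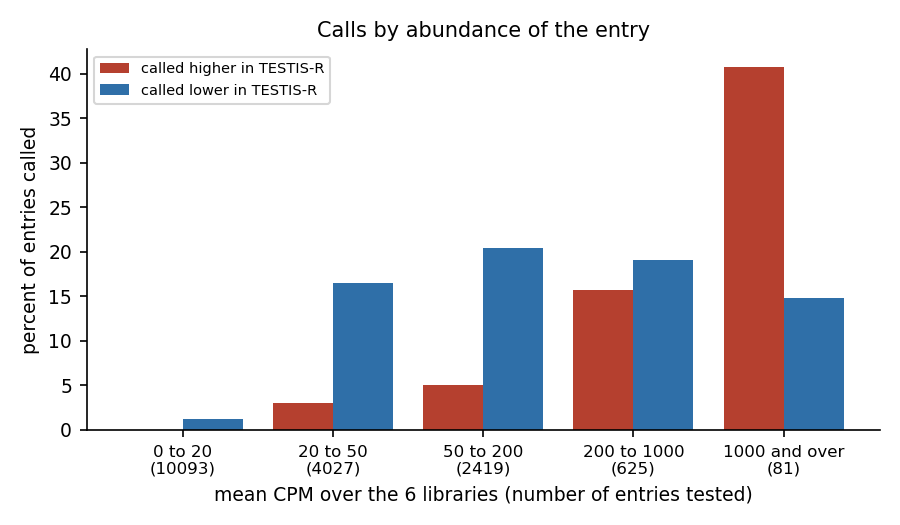
Percent of tested entries called higher (red) or lower (blue) in TESTIS-R against CAUDA-R, by the entry's mean CPM over the 6 libraries, with the number of entries tested under each class. Higher calls go from 0% below 20 CPM to 40.7% at 1000 CPM and over, while lower calls stay between 14.8 and 20.5% from 20 CPM upwards.

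Among the entries called higher whose groups did not overlap and whose mean in TESTIS-R was at least 200 CPM, of which there were 172, those with the largest fitted changes were almost uncounted in the cauda. The entry pir-tup-19987 had 308, 499 and 225 CPM in TESTIS-R 1, 2 and 3 (5514 counts in all) and 0 counts in every CAUDA-R library. Taking the 3 counts that a count of 0 allows over the group, 18.0 CPM, its share was at least 19.1-fold higher in TESTIS-R (adjusted p = 0.000136), or at least 9.45-fold without CAUDA-R 1 and 12.3-fold without CAUDA-R 3. The entries pir-tup-1408, pir-tup-24628, pir-tup-34798 and pir-tup-25864 had 3367 to 4022 counts in TESTIS-R and 1 count each in CAUDA-R, and pir-tup-43353 had 3816 counts in TESTIS-R and 1 count in each CAUDA-R library. Over the summed libraries the ratio of TESTIS-R to CAUDA-R shares was 44.2 for pir-tup-1408 (95% counting interval 7.93 to 1747), 37.0 for pir-tup-25864 (6.64 to 1462) and 14.0 for pir-tup-43353 (4.78 to 67.8), with pir-tup-24628 at 38.4 (6.89 to 1519) and pir-tup-34798 at 37.8 (6.79 to 1495). All but that of pir-tup-43353 rest on 1 cauda count and moved by over 1.5 times without CAUDA-R 1, where they were 21.9 for pir-tup-1408, 18.3 for pir-tup-25864, 18.8 for pir-tup-34798 and at least 6.15 for pir-tup-24628, and without CAUDA-R 3, where they were at least 9.07, at least 7.57, 24.4 and 24.8 in the same order; without CAUDA-R 2 that of pir-tup-34798 was at least 10.5. The entry pir-tup-34798 lost its call without CAUDA-R 1 where the filter was set anew (adjusted p = 0.0642).

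The most abundant of the 8 named by size was pir-tup-31354, the 53rd entry of the testis. It had 1919, 1427 and 1259 CPM in TESTIS-R 1, 2 and 3 and 71.6, 0 and 84.9 CPM in CAUDA-R 1, 2 and 3, where it ranked 3615th on 11 counts. Its mean was 29.4-fold higher in TESTIS-R (log2 4.60, SE 0.48, adjusted p = 1.45e-06). Outside the comparison, the entry had 1172, 0 and 568 CPM in CAPUT-R 1, 2 and 3, from the caput, the first segment of the epididymis, in the same season. It had 1620 and 774 CPM in TESTIS-NR 1 and 2, from testes of the non-reproductive season, and 0 counts in all 3 CAUDA-NR libraries. For pir-tup-30129 the shares were 399, 501 and 386 CPM in TESTIS-R and 23.9, 0 and 50.9 CPM in CAUDA-R (log2 3.85, SE 0.63, adjusted p = 0.000338).

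The 374 higher entries as a set were also followed in libraries that did not choose them. They took 20.7 and 16.7% of TESTIS-NR 1 and 2, 20.1, 7.51 and 18.5% of CAPUT-R 1, 2 and 3, and 0.0157, 0.619 and 5.42% of CAUDA-NR 1, 2 and 3. Both TESTIS-NR libraries and CAPUT-R 1 and 3 thus lay above all 3 CAUDA-R libraries, and all 3 CAUDA-NR libraries below them; CAPUT-R 2, with only 9367 piRNA counts, lay within the CAUDA-R range, whose values chose the entries. The low shares in CAUDA-NR were not particular to these entries: the 15450 tested entries without a call took 0.160, 2.36 and 33.4% of CAUDA-NR 1, 2 and 3, against 55.9, 51.1 and 58.1% of CAUDA-R 1, 2 and 3.

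Among the entries called lower, 237 had groups that did not overlap and a CAUDA-R mean of at least 200 CPM, and the largest changes were in entries with next to no testis counts. The entry pir-tup-27564 had 0, 0 and 2 counts in TESTIS-R 1, 2 and 3 and 107, 51 and 121 counts in CAUDA-R 1, 2 and 3, although the testis libraries held 91.0-fold more piRNA counts. As shares these are 0, 0 and 0.442 CPM in TESTIS-R and 1277, 2170 and 2054 CPM in CAUDA-R, and the ratio over the summed libraries, CAUDA-R over TESTIS-R, was 12691 (95% counting interval 3480 to 105309; adjusted p = 2.95e-11). Close to it by number, though not adjacent, pir-tup-27566 had 0, 0 and 2 counts in TESTIS-R and 14, 9 and 34 in CAUDA-R, a CAUDA-R over TESTIS-R ratio of 2593 (686 to 21926). Without TESTIS-R 2 the ratios of pir-tup-27564 and pir-tup-27566 were 7285 and 1488, and without TESTIS-R 3, which held the testis counts of both, at least 6475 and 1327; that of pir-tup-27566 was 3946 without CAUDA-R 1 and 1620 without CAUDA-R 3. Outside the comparison pir-tup-27564 was not scarce in testes of the non-reproductive season, with 708 and 4148 CPM in TESTIS-NR 1 and 2. Another entry of this stretch, pir-tup-27563, had 6 counts in TESTIS-R, all in library 1, and 68 in CAUDA-R.

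A pair of neighbouring numbers was likewise scarce in TESTIS-R. There were 0 counts of pir-tup-9536 in any TESTIS-R library and 4, 26 and 7 in CAUDA-R 1, 2 and 3, so its share was at least 2139-fold lower in TESTIS-R (floor of 3 counts over the group, 0.198 CPM; adjusted p = 4.24e-06). CAUDA-R 2 held most of these counts, and without it the share was at least 419.8-fold lower in TESTIS-R (without TESTIS-R 2 at least 1228-fold), with an adjusted p of 0.000897 where the same entries were tested. The adjacent pir-tup-9537 had 0.963, 0.155 and 1.55 CPM in TESTIS-R and 465, 1447 and 951 CPM in CAUDA-R, a 1075-fold lower mean in TESTIS-R (log2 -10.03, SE 0.71, adjusted p = 8.85e-09), or 1706-fold without TESTIS-R 3. The others named by size were pir-tup-49 (0, 0.466 and 0.442 CPM in TESTIS-R; 549, 723 and 458 CPM in CAUDA-R), pir-tup-10668 (3 counts in TESTIS-R and 52 in CAUDA-R) and pir-tup-5908 (8 counts in TESTIS-R, all in library 3, and 13, 36 and 18 counts in CAUDA-R). With so few testis counts, single libraries moved the sizes: by the means pir-tup-5908 was 1128-fold lower in TESTIS-R, 391-fold without CAUDA-R 2 and at least 2345-fold without TESTIS-R 3. The mean of pir-tup-27563 was 1048-fold lower, 645-fold without CAUDA-R 2 and at least 1846-fold without TESTIS-R 1.

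Entries with neighbouring numbers were often called lower together. Of the 1421 lower entries 402 (28.3%) had an entry of the next higher or lower number that was also called lower, against 787 (4.97%) of the other 15824 tested entries; for higher calls these shares were 2.14% of 374 and 1.44% of 16871. The labels do not say what the numbering follows. The longest stretch was pir-tup-7301 to pir-tup-7308, whose 8 entries took 0.0116, 0.0200 and 0.0154% of TESTIS-R 1, 2 and 3, against 1.71, 3.46 and 1.67% of CAUDA-R 1, 2 and 3. Besides pir-tup-7302 it holds pir-tup-7307 (18.1, 16.5 and 15.2 CPM in TESTIS-R; 2875, 7064 and 3294 CPM in CAUDA-R) and pir-tup-7305 (8.67, 7.61 and 11.7 CPM in TESTIS-R; 2971, 3064 and 1800 CPM in CAUDA-R). All 8 had a 111- to 1389-fold lower mean in TESTIS-R. In miRNA CPM, though, the stretch summed to 175, 268 and 321 in TESTIS-R and 149, 115 and 124 in CAUDA-R, somewhat more in each testis library. Most of this was pir-tup-7302 alone, with 121, 206 and 248 in TESTIS-R and 81.2, 66.3 and 74.4 in CAUDA-R. Not every entry of the stretch was higher in the testis on this scale. The entry pir-tup-7301 went the other way, with 0, 3 and 0 counts in TESTIS-R and 15, 9 and 5 in CAUDA-R. Libraries of the 2 tissues overlapped for pir-tup-7304, with 3, 15 and 1 counts in TESTIS-R and 34, 11 and 16 in CAUDA-R. The stretch summed to 55.5, 108 and 80.4 miRNA CPM in CAPUT-R and 111, 242 and 150 in CAUDA-NR.

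The entries with a lower share in TESTIS-R were split by whether the CAPUT-NR libraries counted them, a division chosen after the values were seen that also sorts entries by abundance. Of the 1421, 186 had a count in CAPUT-NR 1 or 2, which held 14332 and 13360 piRNA counts, and 1235 had none; the median CAUDA-R share was 288 CPM in the 186 and 72.6 CPM in the 1235. The 186 took 1.13, 1.03 and 1.34% of TESTIS-R 1, 2 and 3 and 9.03, 14.9 and 9.35% of CAUDA-R 1, 2 and 3. Outside the comparison they took 72.1, 74.4 and 35.1% of CAUDA-NR 1, 2 and 3. The 8 lower entries named by size and pir-tup-7302 are all among the 186, and 153 of the 186 were positive on the miRNA scale.

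The other 1235 entries took 1.64, 1.63 and 1.94% of the TESTIS-R libraries and 14.5, 14.5 and 13.3% of the CAUDA-R libraries. In the cauda of the non-reproductive season they were hardly counted apart from 1 library: 9, 58 and 831 of them had a count in CAUDA-NR 1, 2 and 3, with 0.0166, 0.152 and 7.34% of those libraries. They took 2.46, 3.96 and 2.43% of CAPUT-R 1, 2 and 3 and 1.80 and 1.43% of TESTIS-NR 1 and 2. Each of these libraries lay below every CAUDA-R library, whose values chose the entries, and CAUDA-NR 3 lay between. In miRNA CPM, CAUDA-NR 1, 2 and 3 had marker sums of 317, 319 and 601 for germ cells, 84019, 61476 and 75195 for epithelium, 22258, 24516 and 29350 for smooth muscle, 6548, 4184 and 7636 for striated muscle and 6559, 8832 and 3834 for leukocytes. CAUDA-NR 3 was thus the highest in germ cell and in both muscle sums and the lowest in the leukocyte sum, and their part in these values was not tested. For comparison, the 14406 uncalled entries that also had no count in CAPUT-NR took 40.8, 39.4 and 41.2% of TESTIS-R, 36.9, 33.8 and 37.5% of CAUDA-R, 37.6, 22.8 and 41.3% of CAPUT-R, 39.3 and 38.7% of TESTIS-NR, and 0.110, 1.55 and 22.6% of CAUDA-NR. On the miRNA scale 1230 of the 1235 were positive.

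The 5 of these 1235 entries with the highest CAUDA-R mean, chosen after the values were seen, differed among themselves. The share of pir-tup-57836 was 34.4, 32.1 and 33.8 CPM in TESTIS-R 1, 2 and 3 and 883, 1021 and 985 CPM in CAUDA-R 1, 2 and 3, a 28.8-fold lower mean in TESTIS-R (log2 -4.84, SE 0.42, adjusted p = 9.89e-08), beside 207, 107 and 118 CPM in CAPUT-R 1, 2 and 3. For pir-tup-19836 it was 54.0, 64.3 and 56.1 CPM in TESTIS-R and 1098, 851 and 1104 CPM in CAUDA-R (17.5-fold lower in TESTIS-R, log2 -4.14, SE 0.40, adjusted p = 4.35e-07), beside 184, 0 and 107 CPM in CAPUT-R. The other 3 differed by less between the tissues, although their groups did not overlap either. The entry pir-tup-23674 had 327, 197 and 778 CPM in TESTIS-R and 1599, 1106 and 1783 CPM in CAUDA-R (3.45-fold lower in TESTIS-R), beside 368, 534 and 967 CPM in CAPUT-R. There were 434, 385 and 397 CPM of pir-tup-32125 in TESTIS-R and 1539, 1277 and 1189 CPM in CAUDA-R (3.29-fold lower), beside 414, 214 and 461 CPM in CAPUT-R. The shares of pir-tup-52516 were 443, 306 and 337 CPM in TESTIS-R and 1050, 809 and 1647 CPM in CAUDA-R (3.23-fold lower), beside 437, 427 and 450 CPM in CAPUT-R. CAPUT-R thus lay between testis and cauda in every library for pir-tup-57836, on 9, 1 and 23 counts in CAPUT-R 1, 2 and 3. For pir-tup-19836, with 8, 0 and 21 counts, CAPUT-R 1 and 3 lay between as well. These entries are set apart only by the 1 count of pir-tup-57836 in CAPUT-R 2. For the other 3 entries CAPUT-R overlapped TESTIS-R.

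**Figure D5:**
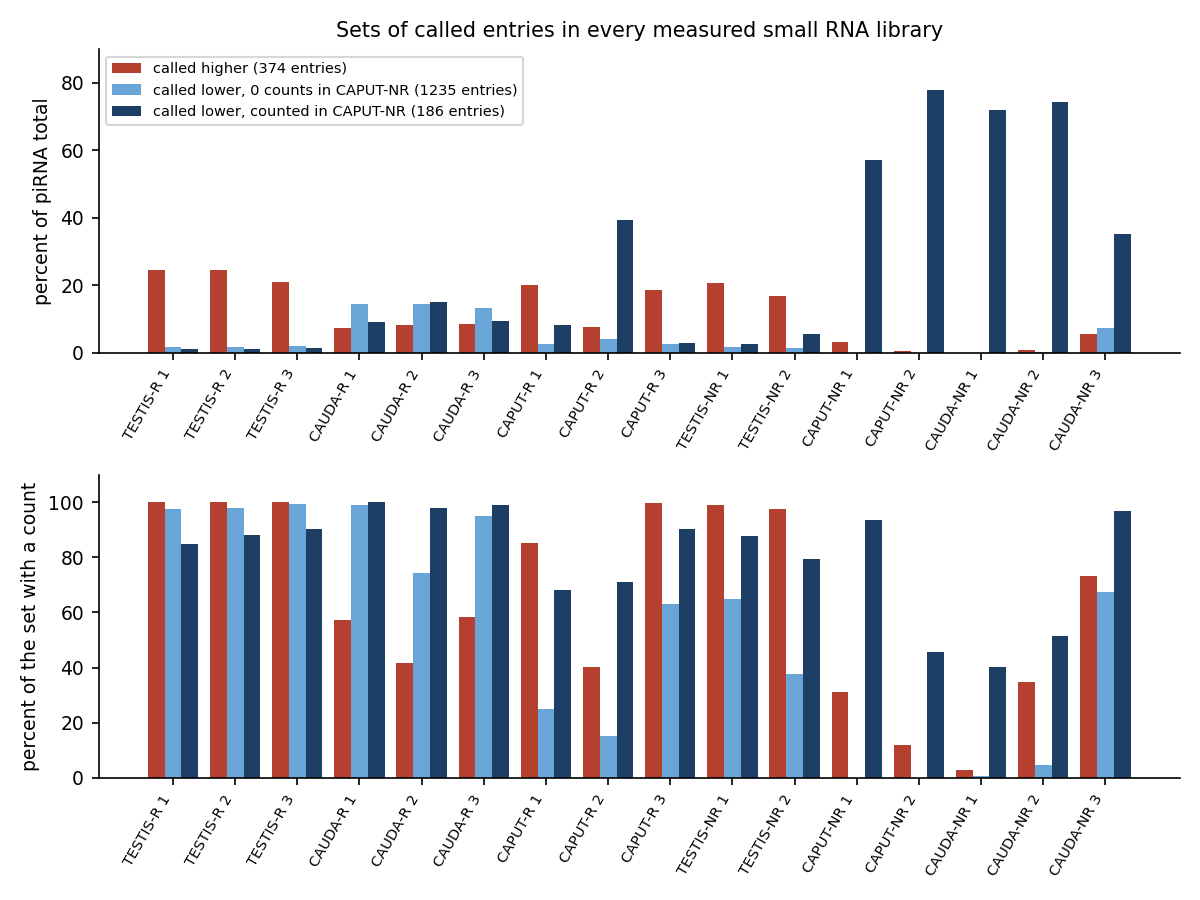
The 374 entries called higher in TESTIS-R (red), the 1235 called lower with 0 counts in CAPUT-NR (light blue) and the 186 called lower with a count in CAPUT-NR (dark blue) in every measured small RNA library, as percent of the library's piRNA total (top) and percent of the set with at least 1 count (bottom). Bars are single libraries; the TESTIS-R and CAUDA-R bars show the values that chose the sets, the CAPUT-NR bars of both blue sets are fixed by the split, and the light blue bars are highest in CAUDA-R (13.3 to 14.5%), then in CAUDA-NR 3 (7.34%).

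A few entries were lower in TESTIS-R on both scales, by share and relative to miRNA counts, and which ones depended on the entries tested. With the default filter on miRNA totals there were 6: pir-tup-27564 (adjusted p = 2.72e-07), pir-tup-49 (0.000973), pir-tup-27563 (0.00634), pir-tup-9531 (0.0220), pir-tup-9537 (0.0275) and pir-tup-5908 (0.0405). With the same entries tested as by share, a fit added after the data were seen, there were 9, of which 3 were among the 6 (pir-tup-49, pir-tup-4831, pir-tup-9536, pir-tup-9537, pir-tup-10390, pir-tup-10671, pir-tup-17388, pir-tup-27564 and pir-tup-27566). The entry pir-tup-27564 had the lowest adjusted p in both fits, with 0, 0 and 0.923 miRNA CPM in TESTIS-R 1, 2 and 3 against 11.2, 7.22 and 15.3 in CAUDA-R 1, 2 and 3, a 36.5-fold lower mean in TESTIS-R (adjusted p = 5.89e-06 in the second fit). The other 8 of the 9 had adjusted p of 0.0112 to 0.0491 there, and 5 of the 9 had 0 counts in TESTIS-R. Those 5 passed the filter only through CAUDA-R, where they are high. On the miRNA scale their counts allow only bounds of at least 2.64- to 5.38-fold lower in TESTIS-R. Under the default filter on miRNA totals those 5 and pir-tup-27566 were not tested. Of these 9, pir-tup-17388 alone was nearly confined to the cauda of the reproductive season: it had 11, 1 and 11 counts in CAUDA-R 1, 2 and 3, 1 count in CAPUT-R 3, and 0 in TESTIS-R and every other measured library. The other 8 were counted in CAUDA-NR, with pir-tup-9537 at 22442, 19324 and 1689 counts in CAUDA-NR 1, 2 and 3.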

How the data were processed

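Small RNA libraries (total RNA extracted with TRIzol, adapter ligation, gel-selected fragments, per the labels' protocols) were compared as deposited: read counts per piRNA entry and per miRNA, and estimated counts per piRNA cluster, which the authors deposited with decimals. Tools named, per the submitters' processing notes, are featureCounts and bedtools; no source used here names the aligner, build, piRNA annotation or treatment of reads that map more than once, and entries of near-identical sequence could share reads. No molecular identifiers are recorded.

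The groups follow the labels. Each entry's share of its library's piRNA total was tested in edgeR 4.0.16 (R 4.3.3) by the quasi-likelihood test, with the library total as library size, no further scaling, the default filter (minimum count 10, minimum total 15), Benjamini-Hochberg adjustment over 17245 entries and calls at an adjusted p under 0.05. The filter applies its minimum count at the median library size, so entries could pass on fewer counts in the shallower CAUDA-R libraries. Log2 differences and ratios are TESTIS-R over CAUDA-R unless said otherwise. Single values per library were compared by exact permutation tests with scipy 1.17.1. The scripts were tested on simulated data.

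Entries were named by rule: the 5 with the highest mean share in each tissue, and, among called entries with no overlap between groups and a mean of at least 200 CPM in the higher tissue, the 8 with the largest log2 change each way. The comparison, lists and tests were chosen with earlier results of these data known.

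Alternatives were TMM, DESeq2 1.42.0 and its size factors, miRNA totals as the scale, other filters, a minimum fold, a replicate block, a fit of all measured libraries and leaving out single libraries. The piRNA columns of TESTIS-NR 3 and CAPUT-NR 3 and the miRNA columns of TESTIS-NR 2 and CAPUT-NR 2 hold the average of other columns and were left out; none belongs to the 6 libraries compared. Depths ran from 4151639 to 6440714 piRNA counts in TESTIS-R and 23499 to 83822 in CAUDA-R, so the precision of shares is set by CAUDA-R.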

Additional observations from a re-analysis of the deposited data

How the results depend on the processing

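The excess of piRNA counts in TESTIS-R, its higher share in the 10 most abundant entries and its somewhat higher mean number of entries at equal depth kept their direction under all alternatives run, in a design whose p cannot pass 0.05; leaving out single libraries gave total ratios of 70.6 to 122, differences of 317 to 1253 entries and of 2.15 to 3.46 percentage points in the top 10. The counts of calls did not hold. Against 374 higher and 1421 lower, there were 4562 and 711 with TMM scaling, 1872 and 861 with DESeq2's size factors, 33479 and 6 on miRNA totals with their own filter (17115 and 9 with the same entries tested), 94 and 881 without a filter, 139 and 907 against a log2 fold of 1, and 42 and 399 in 1 fit of all measured libraries, where fewer entries (3357) passed the filter; DESeq2 called 2225 higher and 1461 lower. Leaving out single libraries gave 87 to 279 higher and 363 to 1344 lower calls with the default filter, which follows the median library size and tested 1740 to 36361 entries; with the same entries tested, an alternative chosen after seeing the data, it gave 143 to 326 higher (143 without CAUDA-R 1, 217 without CAUDA-R 3, 228 without TESTIS-R 1) and 710 to 1486 lower, the lowest without CAUDA-R 1. The replicate number as a block gave 234 higher and 673 lower, and the labels do not pair the numbers. Deviations of same-numbered libraries correlated at -0.01, 0.14 and 0.01 over the entries tested. Over the 421 with at least 200 CPM in both tissues these values were 0.09, 0.42 and 0.21. Not every library correlated best with its own number. TESTIS-R 3 correlated best with CAUDA-R 1, at 0.11 and 0.25, and TESTIS-R 1 with CAUDA-R 3, at 0.07 and 0.18. With the block pir-tup-5156 had an adjusted p of 0.0508. Of 497 alternative values for the 23 named entries, 453 kept direction and call, 37 lost the call, 5 gained it (all of pir-tup-22797, up to log2 8.23 on miRNA totals) and 2 changed direction, both of pir-tup-7302 (log2 1.38 on miRNA totals with either filter). The mean share of CAUDA-R counts in entries not counted in TESTIS-R (0.644%) was 2.87% for entries under 1 CPM there and 0.362 to 1.26% on leaving out single libraries, the highest without TESTIS-R 2. Beyond fewer samples or entries tested, the cause of these shifts was not tested. In CAUDA-R 1 count is worth 11.9 to 42.6 CPM, and the part of this in the higher calls among rare entries was not tested.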

Other observations

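A few piRNA entries were counted in 1 testis library and in neither of the other 2. With at least 50 counts in 1 TESTIS-R library and 0 in the other 2, there were 6 such entries for TESTIS-R 1, 199 for TESTIS-R 2 and 12 for TESTIS-R 3. Of the 199 entries of TESTIS-R 2, 45 were counted in CAUDA-R, all 45 in CAUDA-R 2 (159 counts) and none in CAUDA-R 1 or 3, although CAUDA-R 2 was the shallowest library; 17 were counted in CAPUT-R 2 (39 counts), 3 in CAPUT-R 1 and none in CAPUT-R 3. For TESTIS-R 1, 3 of the 6 entries were counted in CAUDA-R, all in CAUDA-R 1 (236 counts). For TESTIS-R 3, 1 of 12 was counted in CAUDA-R (1 count, in CAUDA-R 1) and 5 in CAPUT-R, all in CAPUT-R 3. The entry pir-tup-6952 had 82, 0 and 0 counts in TESTIS-R 1, 2 and 3, 140, 0 and 0 in CAUDA-R and 224, 0 and 0 in CAPUT-R. These entries were picked after the values were seen.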
